A study of Danio rerio with 8 samples.

Results

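Transcription factors that set the fate of blood cells were followed in whole zebrafish larvae at 6 days post fertilization. The group holds 10 genes chosen by name: runx1, myb, tal1, lmo2 and gata2b of the blood stem cell, gata1a of the red cell, and spi1b, cebpa, cebp1 and irf8 of the myeloid cells. All 10 have a row among the 35197 of the deposited table, and 9 were abundant enough to be among the 21447 rows tested. cebp1 was not, and its values are given as measured.

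RNA came from 8 single larvae. In 4 of them both copies of osgep carried the G177A allele, present by the larva's own (zygotic) genotype, and the other 4 were wild-type larvae, which the study's design text describes as coming from the same families. osgep encodes the catalytic subunit of KEOPS, a complex that modifies transfer RNA. No other allele, agent or treatment is named for either group, and the cross behind each larva, which could be a single pair or a group, is not given in the sources used here. The larvae are separate animals, so p-values set the difference of the groups against the spread between larvae within a group. Whether larvae of a group share a clutch is not given, so variation between clutches could not be separated.

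In vertebrates, blood stem cells arise from the wall of the embryonic aorta. In that step runx1 and gata2b act in endothelial cells that turn into blood, and tal1, with the adaptor protein encoded by lmo2, acts earlier, in the precursors of blood and vessels. The progeny then divide between a red cell program led by gata1a and a myeloid program led by spi1b, whose products hold each other in check. cebpa and cebp1 act in granulocytes and irf8 in macrophages, including the microglia of the brain. Several of these genes are also used outside blood: lmo2 in endothelium, tal1 in spinal cord neurons, runx1 in sensory neurons, myb in dividing cells and cebpa in liver. In RNA of a whole larva, fewer cells of a type and less RNA per cell cannot be told apart.

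Levels are given as CPM, the read counts relative to each library's TMM-scaled size, where 1 read was worth between 0.0444 and 0.0821 CPM. They are not divided by gene length, so levels of different genes are not compared. osgep was between 5.55 and 11.5 CPM in wild-type larvae and between 1.64 and 3.68 CPM in homozygotes, so the groups did not overlap. Library totals ran from 14398812 to 19052599 estimated counts. A pair of libraries stood apart from their groups in makeup: the 100 most abundant rows took 34.5% of the counts of wild-type 1, against 39.5% to 43.4% in the other wild-type larvae, and 38.6% in homozygote 2, against 30.4% to 30.8% in the other homozygotes. Calls were therefore also counted without this pair, a setting in which far more of all tested rows were called (10.5% lower and 7.86% higher). Each library of the pair lay toward the other group in this measure, and the pair was picked from these data. Leaving it out thus tends to widen the separation of the groups by construction, so calls gained there are not separate support.

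Among the 9 tested factors of the group, the data show a fall in irf8, the macrophage factor, and no other call. Of the 9 tested, 1 was called lower in homozygotes, 0 were called higher and 8 were not called, in edgeR's quasi-likelihood model at 0.05, with Benjamini-Hochberg adjustment over all rows. Among all tested rows 0.769% were called lower and 0.284% higher. At an unadjusted p under 0.05 there were 4 of the 9 (irf8, lmo2, spi1b and gata1a), each lower in homozygotes; of all tested rows 22.3% reached that level. Wild-type and homozygous TMM-scaled values were fully apart in irf8 and gata1a, against 10.4% of all tested rows, and also in cebp1, which was not tested. Over the 9 factors the median log2 fold change was -0.43, and over all tested rows it was 0.02.

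**Figure D1:**
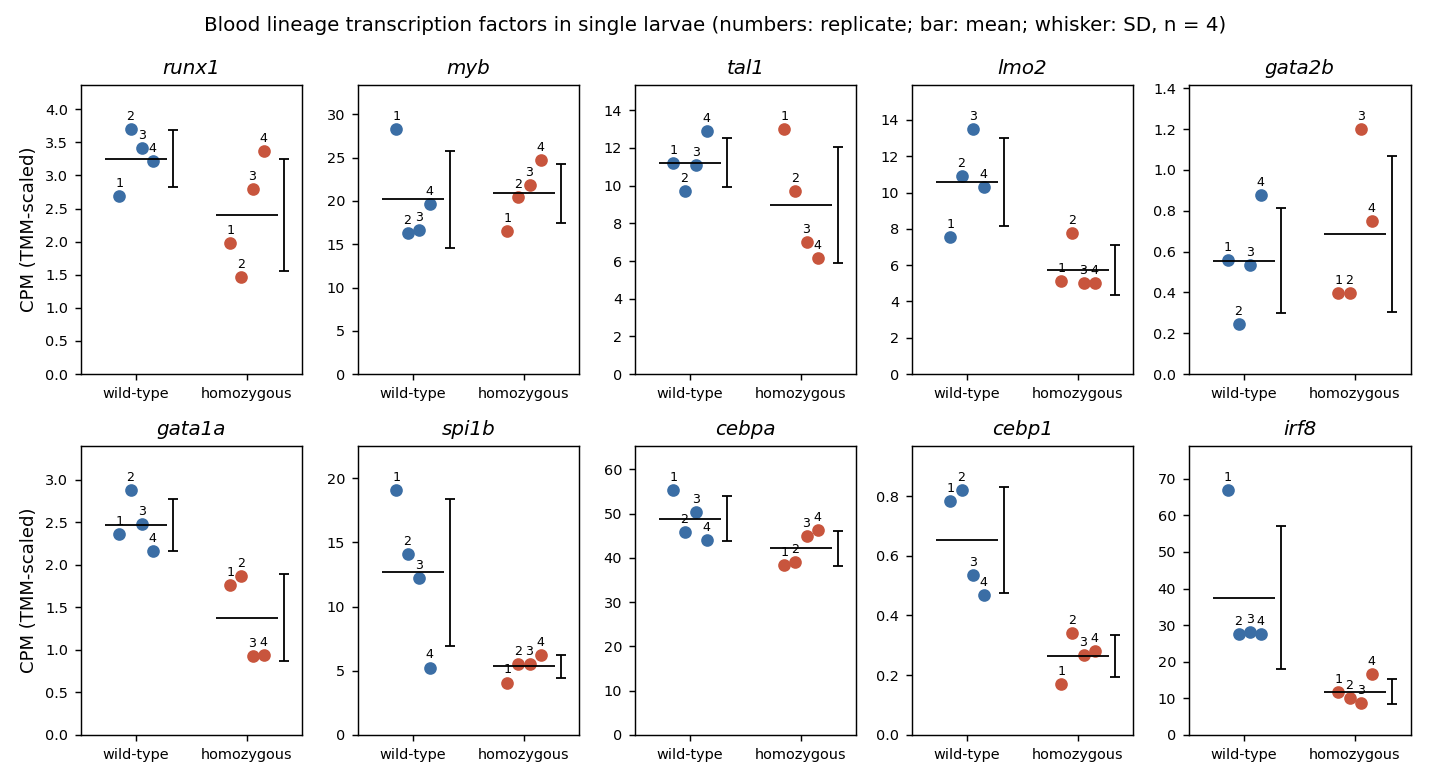
CPM (y axes, linear, from 0) of each of the 10 factors in the 4 wild-type and 4 homozygous larvae, each point being 1 larva numbered by its replicate, with the group mean as a bar and the SD (n = 4) as a whisker. Homozygotes lie below every wild-type larva for irf8 (8.83 to 16.6 CPM), gata1a and cebp1, while the groups share their range for the others.

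Among the stem cell factors none of the 5 was called, and the values of the groups overlapped in each. runx1, required for blood stem cells to form, was at 2.69, 3.70, 3.42 and 3.21 CPM in the wild-type larvae (here and below in the order of their numbers, from 1) and at 1.98, 1.47, 2.80 and 3.37 CPM in the homozygotes. Homozygotes 1 and 2 lay below every wild-type larva and the other homozygotes lay within the wild-type range. The fitted log2 change was -0.43 with an SE of 0.30 (edgeR adjusted p = 0.412).

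myb, which maintains stem and progenitor cells, was at 28.3, 16.3, 16.6 and 19.6 CPM in wild-type larvae and at 16.5, 20.5, 21.8 and 24.7 CPM in homozygotes. All 4 homozygotes lay within the wild-type range, whose top was wild-type 1. The fitted log2 change was 0.05 with an SE of 0.20 (edgeR adjusted p = 0.914), and 0.28 (adjusted p = 0.306) without wild-type 1 and homozygote 2.

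tal1, a basic helix-loop-helix factor, was at 11.2, 9.69, 11.1 and 12.9 CPM in wild-type larvae and at 13.0, 9.69, 7.01 and 6.17 CPM in homozygotes. The homozygotes were spread more widely, with an SD of 3.06 against 1.31 CPM (n = 4 each), and homozygote 1 was the highest of all larvae. Its log2 change was -0.33 with an SE of 0.23 (edgeR adjusted p = 0.421).

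lmo2, whose product joins tal1 and GATA proteins on DNA, was at 7.57, 10.9, 13.5 and 10.3 CPM in wild-type larvae and at 5.15, 7.76, 5.02 and 5.00 CPM in homozygotes. The groups overlapped by the libraries that stood apart alone: homozygote 2 lay just above wild-type 1, and the other 3 homozygotes lay below every wild-type larva. With all larvae the log2 fold change was -0.88 (SE 0.23) and did not pass (adjusted p = 0.0705 by edgeR). Without wild-type 1 and homozygote 2 it was -1.17 and passed (edgeR adjusted p = 0.00466), in a setting where 10.5% of all tested rows were called lower. Those are the larvae by which the groups overlapped, so leaving out either or both separates the groups by construction. Without wild-type 1 alone lmo2 also passed (-0.99, edgeR adjusted p = 0.0249), where 5.77% of rows were called lower. The same held without homozygote 2 alone (-1.06, edgeR adjusted p = 0.0322), where 3.46% were. With all larvae lmo2 passed by DESeq2 (-0.88, adjusted p = 0.0132), which called 5.20% of rows lower.

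gata2b, the GATA factor of endothelium that forms blood, rested on only 3 to 27 reads per larva. It was at 0.561, 0.246, 0.536 and 0.876 CPM in wild-type larvae and at 0.396, 0.397, 1.20 and 0.748 CPM in homozygotes, with the highest value in homozygote 3. The log2 change of 0.29 (SE 0.53, edgeR adjusted p = 0.775) was smaller than its error, and no difference was detected at this depth.

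gata1a, which drives the red cell program, was at 2.36, 2.88, 2.48 and 2.16 CPM in wild-type larvae and at 1.76, 1.87, 0.932 and 0.935 CPM in homozygotes, from 20 to 42 reads per larva. Every homozygote lay below every wild-type larva, homozygotes 3 and 4 by the most. This separation depends on the TMM scaling. Homozygote 1 had 31 reads in a library total of 14398812, a larger share than the 37 in 19052599 of wild-type 4. The log2 fold change was -0.85 (SE 0.33) and did not pass (adjusted p = 0.159 by edgeR). It stayed negative in all 16 alternatives that tested it, between -1.03 and -0.48, with adjusted p between 0.0856 and 0.381.

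irf8, required for macrophages and microglia in zebrafish, was at 67.0, 27.5, 28.1 and 27.6 CPM in wild-type larvae and at 11.7, 10.0, 8.83 and 16.6 CPM in homozygotes. All homozygotes lay below all wild-type larvae, and wild-type 1 stood far above the other wild-type larvae, which were close together. irf8 fell 3.18-fold (log2 change -1.67, SE 0.32; edgeR adjusted p = 0.0398). Without wild-type 1 the change was smaller and still called (-1.21, edgeR adjusted p = 0.0127), where 5.77% of all rows were called lower. Without wild-type 1 and homozygote 2 together it was -1.14 (edgeR adjusted p = 0.00734), where 10.5% of all rows were called lower. With all larvae that share was 0.769%. Leaving out certain other larvae ended the call: the edgeR adjusted p was 0.0715 and 0.0793 with wild-type 2 or 3 removed, and 0.131, 0.116 and 0.0638 with homozygote 1, 3 or 4 removed. In those fits fewer of all rows were called lower, between 0.146% and 0.351%. Scaling libraries by totals alone also ended it (-1.36, 0.0704), and the direction was kept in each case.

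spi1b encodes PU.1, the factor common to granulocytes and macrophages. It was at 19.1, 14.1, 12.2 and 5.25 CPM in wild-type larvae and at 4.08, 5.50, 5.55 and 6.26 CPM in homozygotes. The first 3 wild-type larvae lay above every homozygote, and wild-type 4 lay among the homozygotes. The log2 fold change was -1.24 (SE 0.32) and did not pass (adjusted p = 0.0705 by edgeR). Without wild-type 4, the larva by which the groups overlapped, it was -1.50 and passed (edgeR adjusted p = 0.00700), where 1.19% of rows were called lower. With all larvae it passed by DESeq2 (-1.25, adjusted p = 0.00769), which called 5.20% of rows lower. Its estimated counts were not whole in 7 of 8 larvae, so some of its reads were divided with other rows and its level is less certain than those of the other factors, whose counts were whole in every larva.

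The C/EBP factors did not pass. cebpa, a factor of granulocytes and of liver, was at 55.4, 45.8, 50.3 and 44.0 CPM in wild-type larvae and at 38.3, 39.1, 44.9 and 46.3 CPM in homozygotes, with the smallest relative spread of the 10 factors (SD 10.5% of the mean in wild-type larvae and 9.63% in homozygotes). Homozygotes 1 and 2 lay below every wild-type larva; the log2 change was -0.21 with an SE of 0.14 (edgeR adjusted p = 0.394). cebp1, a myeloid C/EBP gene of granulocytes, had between 3 and 14 reads per larva. It was at 0.785, 0.821, 0.536 and 0.467 CPM in wild-type larvae and at 0.170, 0.340, 0.266 and 0.281 CPM in homozygotes, each homozygote below each wild-type larva. When no low-count filter was used, its log2 fold change was -1.27 (adjusted p = 0.284 by edgeR), not past the threshold.

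**Figure D2:**
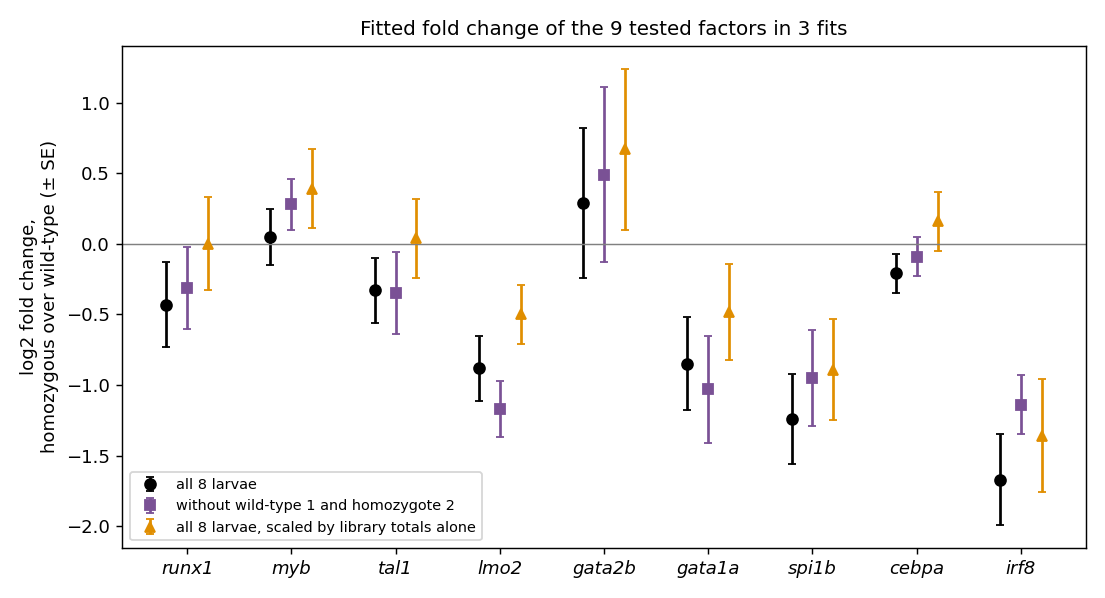
Log2 fold change, homozygous over wild-type, with its SE (whiskers), of the 9 tested factors with all 8 larvae (black circles), without wild-type 1 and homozygote 2 (purple squares) and with all larvae scaled by library totals alone (orange triangles). irf8, spi1b, lmo2 and gata1a stay below 0 in all 3 fits, irf8 between -1.67 and -1.14, whereas tal1 and cebpa cross 0 under library totals.

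Directions depend on the scaling for the factors nearest to 0. TMM factors were between 0.732 and 1.07 in wild-type larvae and between 0.951 and 1.23 in homozygotes. Scaling by library totals alone moved the median of all rows from 0.02 to 0.40 on the log2 scale, which turned tal1 (0.04) and cebpa (0.16) positive and put runx1 at 0.00. Relative to that median the values were -0.36 for tal1, -0.24 for cebpa and -0.40 for runx1, with -0.88 for gata1a, -0.90 for lmo2, -1.29 for spi1b and -1.76 for irf8.

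Ratios of a pair of factors within a larva do not depend on scaling. They were formed for 4 pairs as log2 ratios of counts with 0.5 added, and the groups were compared by permuting larvae exactly, two-sided, where 4 against 4 cannot go below p = 0.0286. The ratio of spi1b to gata1a, the myeloid over the red cell factor, was 2.21 ± 0.71 (SD, n = 4) in wild-type and 2.00 ± 0.74 (SD, n = 4) in homozygous larvae, and the ranges overlapped (exact permutation p = 0.686). That of irf8 to cebp1, macrophage over granulocyte, was 5.70 ± 0.56 against 5.34 ± 0.57 (SD, n = 4 each; exact permutation p = 0.457). That of gata2b to its paralog gata2a was -4.92 ± 0.82 against -4.15 ± 0.80 (SD, n = 4 each; exact permutation p = 0.257).

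The ratio of cebp1 to cebpa differed most between the groups. It was -6.09, -5.73, -6.47 and -6.47 in wild-type larvae and -7.59, -6.73, -7.28 and -7.25 in homozygotes, so all homozygotes lay below all wild-type larvae. The difference was -1.03 on the log2 scale (exact permutation p = 0.0286). After Benjamini-Hochberg adjustment over the 4 pairs p was 0.114 (exact permutation), so none of the pairs passed, and the 3 to 14 reads of cebp1 limit its precision.

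Other transcription factors of blood were mostly not called by edgeR either. Of 40 on the list 39 were found and 37 tested, of which 1 was called lower, 0 higher and 36 were not called. Among all tested rows 0.769% were called lower. In the list 24 lay below 0 and the median was -0.15. The gene called by edgeR was cebpb, a C/EBP factor of inflammation and emergency granulocyte production in mammals. It was at 231, 326, 195 and 167 CPM in wild-type larvae and at 68.9, 71.7, 87.9 and 112 CPM in homozygotes, a fall without overlap of the groups (log2 change -1.43, SE 0.23; edgeR adjusted p = 0.013). The call was lost in 1 of 17 alternatives, scaling by library totals (0.0538). Without wild-type 1 and homozygote 2 the list had 5 genes called lower and 3 higher, beside 10.5% and 7.86% of all rows.

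Among 22 paralogs of the factors 17 were tested, and 1 was called lower by edgeR, beside 0.769% of all tested rows. It was cebpb, already counted above. Of the tested paralogs cebpb, cebpd, cebpg, gata2a, gata3, lyl1, runx3 and spi1a are also on the list of other blood factors. The counts of both lists are therefore not separate results. Without wild-type 1 and homozygote 2, 4 of the 17 were called lower and 2 higher (10.5% and 7.86% of all rows), and without wild-type 1 alone 5 were called lower (5.77% of all rows). spi1a, a second PU.1-type gene of zebrafish, ran beside spi1b: it was at 38.5, 24.9, 23.9 and 13.3 CPM in wild-type larvae and at 9.40, 11.6, 13.2 and 10.3 CPM in homozygotes. As for spi1b, wild-type 1 was the highest and wild-type 4 the lowest of the wild-type larvae, and here the groups did not overlap. Its log2 fold change was -1.17 (SE 0.26) and did not pass (adjusted p = 0.0542 by edgeR). It passed in 5 of 17 alternatives: no low-count filter (0.0422), DESeq2 (0.00265), and without wild-type 1 (0.033), wild-type 4 (0.00744) or wild-type 1 and homozygote 2 together (0.0324).

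Receptors and ligands that act with these factors gave 2 calls among 21 tested, both lower, with 0 higher and 19 not called. Among all tested rows 0.769% were called lower, and the list median was -0.40. Without wild-type 1 and homozygote 2, 4 were lower and 3 higher (10.5% and 7.86% of all rows). csf3r, the receptor of the granulocyte colony-stimulating factor, was at 23.7, 18.0, 16.5 and 5.20 CPM in wild-type larvae and at 4.98, 4.31, 3.33 and 4.82 CPM in homozygotes. Wild-type 4 lay only just above the highest homozygote, as it lay among them for spi1b. The gene fell 3.63-fold (log2 change -1.86, SE 0.37; edgeR adjusted p = 0.0451). jak2a, a kinase of cytokine receptors including that of erythropoietin, was at 56.2, 74.5, 62.2 and 49.4 CPM in wild-type larvae and at 40.9, 38.4, 35.3 and 31.9 CPM in homozygotes, a 1.65-fold fall (log2 change -0.73, SE 0.16; edgeR adjusted p = 0.0496). Both calls stand close to the threshold and each was lost in 8 of 17 alternatives. For both genes these include library totals, limma voom and leaving out wild-type 2, wild-type 3 or homozygote 1, 3 or 4, with adjusted p up to 0.133 for csf3r and 0.207 for jak2a.

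Some genes that mark the myeloid cells were called lower in both lists, and more were not called. Of 19 macrophage genes tested 9 were called lower, 0 higher and 10 not, with a median log2 fold change of -1.54. Of 19 neutrophil genes 6 were called lower, 0 higher and 13 not, with a median of -0.83. All 19 macrophage genes lay below 0, and of the neutrophil genes 16 lay below and 3 above. Of all tested rows 0.769% were called lower. The summed level of the macrophage list ran from 1840 to 3210 CPM in wild-type larvae and from 1300 to 1890 CPM in homozygotes, and that of the neutrophil list from 941 to 1450 and from 570 to 740 CPM. Most of the macrophage sum came from apoeb, an apolipoprotein gene, which was at 1210 to 2150 CPM in wild-type larvae and at 1060 to 1560 CPM in homozygotes and was not called (log2 change -0.17, SE 0.25; edgeR adjusted p = 0.719). Without apoeb the sum was 528 to 1060 CPM in wild-type larvae and 243 to 344 CPM in homozygotes, so the groups did not overlap. Without wild-type 1 and homozygote 2, 13 macrophage genes were called lower and 0 higher, and 11 neutrophil genes lower and 1 higher, where 10.5% and 7.86% of all rows were called. Over the alternatives the counts called lower ran from 5 to 15 for macrophage genes and from 3 to 11 for neutrophil genes. Whether the change in irf8 goes with the number of macrophages was not tested.

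**Figure D3:**
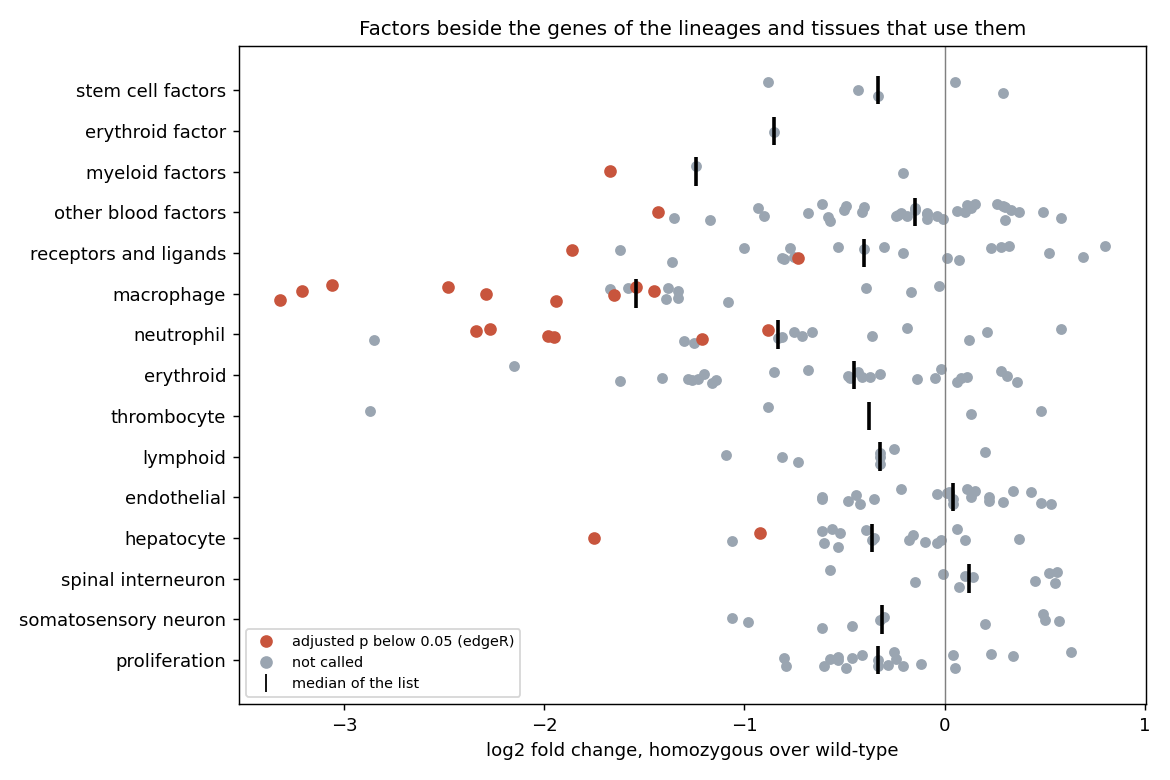
Log2 fold change, homozygous over wild-type (x axis), of each tested gene of the factor groups and of lists of lineage and tissue genes (rows), with called genes in red, the others in grey and the list median as a black bar. The macrophage list lies farthest to the left, with a median of -1.54, and the endothelial list lies around 0, with a median of 0.04.

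The other lists hold red cell genes and genes of the tissues where some of the factors are also used. Of 26 red cell genes tested 0 were called by edgeR (10 at an unadjusted p under 0.05), with a median of -0.45. Of all tested rows 22.3% had an unadjusted p under 0.05, the share to set beside such counts here and below. DESeq2 called 3 lower (5.20% of all rows). In the list 20 lay below 0 and 6 above. The tested globin genes lay from -2.15 to -1.16, none called by edgeR, and rhag lay highest at 0.36. The summed level was 1170 to 2000 CPM in wild-type larvae and 749 to 1310 CPM in homozygotes. Its most abundant gene, rhag, was at 208 to 277 CPM in wild-type larvae and at 239 to 353 CPM in homozygotes. Without rhag the sum was 944 to 1800 and 437 to 1070 CPM. Without wild-type 1 and homozygote 2, 10 of the red cell genes were called lower and 1 higher (10.5% and 7.86% of all rows). Of 22 endothelial markers 0 were called by edgeR or DESeq2 (7 at an unadjusted p under 0.05), with a median of 0.04, and their summed level was 272 to 311 CPM in wild-type larvae and 276 to 313 CPM in homozygotes. Without the same pair 2 endothelial markers were called lower and 1 higher. The endothelial sum holds changes in both directions: 8 of the 22 markers lay below 0 and 14 above, from -0.61 to 0.53. It stands beside the lower homozygote values of lmo2, which was itself not called (edgeR adjusted p = 0.0705).

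For tal1, the 10 markers of spinal interneurons had 0 calls by edgeR or DESeq2 (1 at an unadjusted p under 0.05) and a median of 0.12. Without wild-type 1 and homozygote 2, 1 was called lower (10.5% of all rows). In this paragraph too, counts at an unadjusted p under 0.05 stand beside 22.3% of all tested rows. For runx1, the 10 tested markers of somatosensory neurons had 0 calls by edgeR (4 at an unadjusted p under 0.05, 1 called lower by DESeq2) and a median of -0.31. For myb, the 21 genes of proliferation had 0 calls by edgeR (8 at an unadjusted p under 0.05) and a median of -0.33. DESeq2 called 2 lower and 1 higher (5.20% and 2.7% of all rows). Without wild-type 1 and homozygote 2, 8 were called lower and 1 higher (10.5% and 7.86% of all rows). For cebpa, 2 of 19 hepatocyte markers were called lower by edgeR, beside 0.769% of all tested rows, and the list median was -0.36. They were ahsg2, a fetuin gene, at a log2 change of -1.75, and gc, the vitamin D binding protein gene, at -0.92. The call of ahsg2 was lost in 6 of 17 alternatives and that of gc in 8. With library totals, 0 of the hepatocyte markers were called. The same held when wild-type 2, wild-type 3 or homozygote 1, 3 or 4 was left out. In that list 6 had an unadjusted p under 0.05, and 4 were called lower by DESeq2 (5.20% of all rows). Without wild-type 1 and homozygote 2, 8 were called lower (10.5% of all rows). Of 4 tested thrombocyte genes 0 were called by edgeR (3 at an unadjusted p under 0.05). DESeq2 called 2 of them lower and 1 higher (5.20% and 2.7% of all rows). Without the pair 1 was lower (10.5% of all rows). Of 8 tested lymphoid genes 0 were called by edgeR or DESeq2 (2 at an unadjusted p under 0.05). cd8a, a T cell gene of the lymphoid list, was listed at 0 in every larva.

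Some factors were also set against a marker of cells that use them, in the same larva. These ratios were chosen after their values were seen and carry no test. The log2 ratio of irf8 to mpeg1.1, a macrophage perforin gene, was 0.21 ± 0.51 (SD, n = 4) in wild-type and -0.01 ± 0.70 (SD, n = 4) in homozygous larvae, so the groups overlapped. Against all 19 tested macrophage genes the difference of irf8 had a median of -0.12 and was below 0 for 12. The log2 ratio of cebp1 to mpx, the neutrophil peroxidase gene, was -6.97 ± 0.29 (SD, n = 4) and -5.96 ± 0.40 (SD, n = 4), with all homozygotes above all wild-type larvae and a difference of 1.02. That direction depends on the marker: mpx had the third lowest log2 change of the 19 tested neutrophil genes (-2.27), and against all of them the difference of cebp1 was below 0 for 14 and above 0 for 5, from -1.85 to 1.57 with a median of -0.45. The log2 ratio of spi1b to lcp1, a leukocyte actin-bundling gene, was -4.47 ± 0.39 (SD, n = 4) and -3.71 ± 0.38 (SD, n = 4), with a difference of 0.75 and ranges that overlapped. lcp1 belongs to the macrophage list, against which the difference of spi1b was above 0 for 15 of 19 genes, with a median of 0.36. The factor also acts in granulocytes, and its log2 change (-1.24) was below the median of the tested neutrophil genes (-0.83). The direction for spi1b thus depends on the list it is set against.

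Outside the myeloid cells the same measure gave other patterns. The log2 ratio of gata1a to slc4a1a, the red cell anion exchanger gene, was -4.65 ± 0.59 (SD, n = 4) and -4.72 ± 0.52 (SD, n = 4) in wild-type and homozygous larvae. That of gata1a to alas2, for the first enzyme of heme synthesis in red cells, was -3.33 ± 0.72 (SD, n = 4) and -2.96 ± 0.48 (SD, n = 4). Both overlapped, and against all 26 tested red cell genes the difference of gata1a was below 0 for 17 and above 0 for 9. It ran from -1.26 to 1.35 with a median of -0.43, so its direction depends on the marker. The tested globin genes (-2.15 to -1.16) had lower log2 changes than gata1a (-0.85), and rhag had a higher one (0.36). The log2 ratio of lmo2 to kdrl, an endothelial receptor gene, was -0.92 ± 0.57 (SD, n = 4) and -2.33 ± 0.51 (SD, n = 4), a difference of -1.41, and of -1.92 without wild-type 1 and homozygote 2. The highest homozygote (-1.58) lay just above the lowest wild-type larva (-1.69). kdrl had the highest log2 change of the 22 endothelial markers (0.53, not called), so it gave the widest difference. Against all 22 the difference of lmo2 was below 0, from -1.41 to -0.28 with a median of -0.89.

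**Figure D4:**
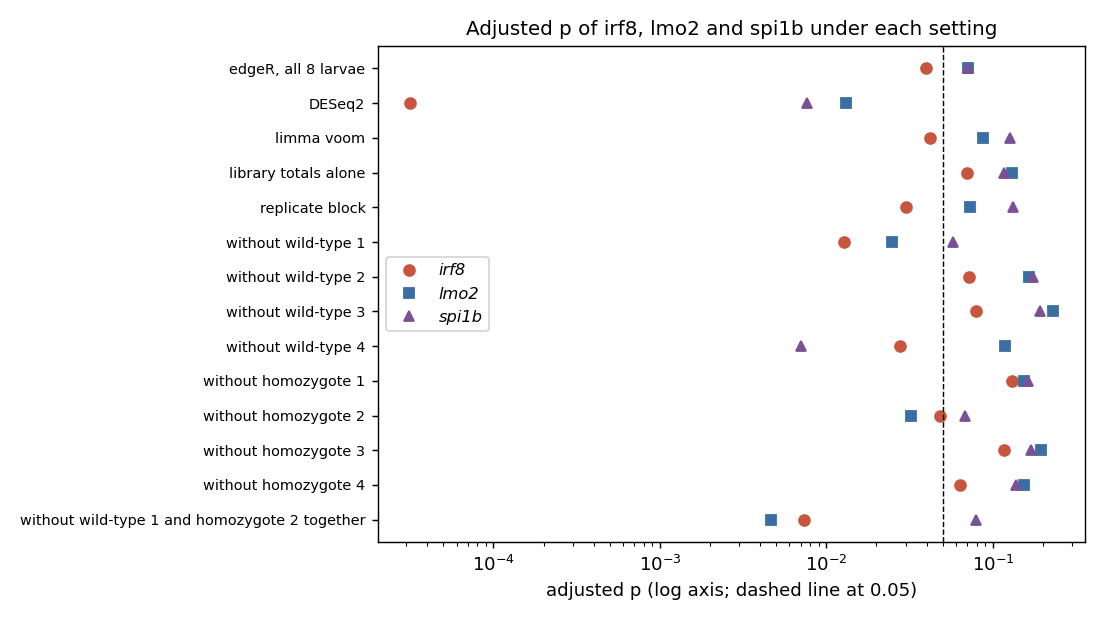
Adjusted p (x axis, logarithmic) of irf8, lmo2 and spi1b under the edgeR fit with all 8 larvae and under 13 other settings (rows), with a dashed line at 0.05. irf8 lies on both sides of the line as single larvae are left out, between 0.0127 and 0.131, and lmo2 is left of it without wild-type 1 or homozygote 2.

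The genes whose profile over the 8 larvae was most like that of each factor were found among 15577 named genes with a mean of at least 1 CPM. The measure was the root mean square difference of log2 CPM after each gene was centred on its own mean. Nearest to irf8 were slc2a6 (0.276) and fgl2a (0.291), to spi1b jak3 (0.181) and spi1a (0.194), and to gata1a ubash3bb (0.123) and her12 (0.162). Nearest to lmo2 were myog (0.085), a muscle differentiation factor gene, and srl (0.087), a muscle calcium store gene. For the other stem cell factors they were cnga3a (0.162) and fam20a (0.168) for runx1, cnnm4b (0.080) and samd13 (0.089) for myb, wasf1 (0.133) and parp6b (0.140) for tal1, and vipr1a (0.232) and cyp2aa3 (0.255) for gata2b. For cebpa they were tsc22d2 (0.060) and igf2r (0.068). Larvae, depth and scaling are shared by all genes, so these values describe likeness in these 8 larvae.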

How the data were processed

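Whole-larva RNA was purified with a DNase step, depleted of ribosomal RNA and sequenced after random priming, per the labels' protocols. The authors deposited estimated counts per gene; reads were handled with Trimmomatic, STAR 2.7 and RSEM on the danRer11 build, per the submitters' processing notes. Settings, annotation and strand are not given in the sources used here, so overlapping and antisense genes may share reads. Columns of other samples and rows without a gene name numbered 0.

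Counts were rounded, filtered with filterByExpr (minimum count 10), scaled by TMM and fitted in R 4.3.3 with the robust quasi-likelihood model of edgeR 4.0.16 (genotype alone, all 8 larvae, adjustment over all rows at 0.05). An SE is the fold change divided by the root of its F value. The members and lists were chosen with earlier results of these data known. Of 241 other listed genes 237 were found by symbol or through the table of gene names. Genes named beside the 10 factors are osgep, called genes with the smallest p of a list (some are left out), the 2 nearest profiles of each tested factor, and, chosen after their values were seen, spi1a and the markers in the ratios. On simulated data for this comparison (21127 genes tested) 7 of 142 edgeR calls were false. There edgeR found 48% of the 2-fold and 87% of the 4-fold changes, and with no gene changed it made 1 call. In the same simulation 22 of 169 DESeq2 calls and 8 of 128 limma voom calls were false. The false share there was largest for DESeq2, so calls made by DESeq2 alone are taken as less certain. On the real libraries DESeq2 called 1115 rows lower and 578 higher, against 165 and 61 by edgeR. That is a far wider gap between the tools than in the simulation. The simulated shares of changes found and of false calls may thus not hold for these libraries. Libraries of a group differed by more than sampling noise in every pair (chi-square from 19.4 to 73.6 per degree of freedom). Alternatives were other size factors, library totals, other filters, DESeq2 1.42.0, limma 3.58.1 with voom, no robust option, a replicate block and leaving out libraries. No sequence was analysed here.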

Additional observations from a re-analysis of the deposited data

Results flagged for a closer look

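Within groups of 4, a larva was singled out where its gap to the nearest other larva was over 0.829 of the group's range, which chance gives in about 1 of 20 groups; here 2 of 20 were. irf8 in wild-type 1, at 67.0 CPM, stood above the other wild-type larvae with a gap of 0.984 of the range. lmo2 in homozygote 2, at 7.76 CPM, stood above the other homozygotes with a gap of 0.946 of the range. Both larvae are those whose libraries stood apart in makeup; the cause was not tested.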

How the results depend on the processing

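The count of factors called higher was 0 in all 17 alternatives, and that of factors called lower was 1 in 6 of them. It was 3 by DESeq2, 0 with library totals, 2 without wild-type 1 and homozygote 2 together, and 0 to 2 when 1 library was left out. Of all rows, 165 were called lower and 61 higher, 226 in all. These counts were 1115, 578 and 1693 by DESeq2, 102, 34 and 136 by limma voom, and 2258, 1694 and 3952 without wild-type 1 and homozygote 2; with library totals 35 were lower and 123 were called in all, and with no low-count filter 114 were higher and 349 in all. When 1 library was left out they ran from 32 to 1259, 6 to 871 and 38 to 2130, lowest without wild-type 3 and highest without wild-type 1. The cause was not tested.

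Signs turned for tal1 (0.04) and cebpa (0.16) with library totals. With 1 library left out the log2 fold change ran from -0.04 to 0.27 for myb and from -0.11 to 0.60 for gata2b, and the difference in the ratio of spi1b to gata1a, -0.21 with all larvae, ran from -0.52 to 0.06. Without wild-type 1 and homozygote 2 it reversed to 0.21, and that of irf8 to cebp1 reversed from -0.35 to 0.06. The ratio of cebp1 to cebpa ran from -1.19 to -0.87 with 1 library left out and was -1.15 without the pair. Its unadjusted exact permutation p was 0.0571 without any of the wild-type larvae and 0.1 without the pair, the smallest that 3 against 3 allows.

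Larvae with equal replicate numbers were not alike over all rows (correlation of deviations -0.08, 0.05, -0.08 and -0.11). Of the wild-type larvae only number 2 correlated most with the homozygote of its own number. Whether larvae shared a clutch or day cannot be told from these values. With a replicate block 261 rows were called lower and 333 in all, and irf8 was the only factor called (-1.59, edgeR adjusted p = 0.0299); the ratio of cebp1 to cebpa kept its value of -1.03 and could not pass, since the smallest p of 4 pairs is 0.125. Depth limits gata2b, cebp1 and gata1a most.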
